A study of Caenorhabditis elegans with 2 samples.

Results

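The cytosolic ribosomal protein genes were described here by the regions listed near them for the Caenorhabditis elegans protein CEH-6, a transcription factor with a POU domain and a homeodomain. The members were all protein-coding genes of the WBcel235 annotation whose name starts with rpl- or rps-. There were 78 of them, 47 rpl- genes (large subunit) and 31 rps- genes (small subunit), among 19985 protein-coding genes. The rule used names only and no measured value. A handful of genes of the same ribosome carry other names (rla-0, rla-1, rla-2, ubl-1, ubq-2 and rack-1) and were kept as a separate list.

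The study mapped CEH-6 on chromatin in 1 group of 2 biological replicates. Both were mixed sex late embryos of strain OP748, obtained by egg bleaching, and the labels give an age of 3.3 hours without saying from when it was counted. The worms carried the transgene wgIs748, in which ceh-6 is fused to TY1, EGFP and 3xFLAG next to unc-119(+), in an unc-119(ed3) mutant of the VC2010 background. Sonicated chromatin was pulled down with an antibody against GFP. The line is a single transgenic strain in which the tagged copy comes in addition to the native gene. Whole animals were used, so binding in different cell types cannot be told apart. No mock immunoprecipitation and no other genotype, stage or treatment was analysed here, so the comparison is between genes and not between groups of samples.

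Ribosomal proteins, together with ribosomal RNA, form the large subunit, which joins amino acids, and the small subunit, which reads the messenger RNA. Each is needed in a fixed ratio to the others, and their genes are among the most strongly transcribed in growing cells. In C. elegans, the messenger RNAs of many of these genes are trans-spliced to a spliced leader, so that the annotated start can be a splice site and the place where transcription begins can lie further upstream. CEH-6 is known for its roles in the excretory canal cell, in rectal epithelial cells and in some neurons. POU factors of this kind recognise an octamer, ATGCAAAT.

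The highest ranked regions of these genes lay in the DNA before the gene, and some weaker ones lay inside it. The sequences around 3 of the summits are shown because they belong to the strongest regions of the set, 2 of them with a shared 8-mer and 1 without it. Each is read on the gene's strand of the RefSeq copy of WBcel235, from 60 bases before the pooled summit to 100 bases after it, so that the summit is base 61 of 161. They span chrIV:654847-655007 (minus strand), chrIV:1659182-1659342 (plus strand) and chrIII:7854625-7854785 (plus strand). Capitals mark the 8-mer GGCCTAAA, which was picked after the sequences of the ribosomal protein genes had been read.
rpl-15: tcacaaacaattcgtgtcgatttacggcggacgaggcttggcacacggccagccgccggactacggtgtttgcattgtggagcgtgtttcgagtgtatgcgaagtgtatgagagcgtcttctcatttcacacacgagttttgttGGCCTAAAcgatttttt
rps-28: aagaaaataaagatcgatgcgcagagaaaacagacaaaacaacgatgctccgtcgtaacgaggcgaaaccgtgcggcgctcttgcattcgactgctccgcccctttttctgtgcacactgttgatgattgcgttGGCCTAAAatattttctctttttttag
rpl-35: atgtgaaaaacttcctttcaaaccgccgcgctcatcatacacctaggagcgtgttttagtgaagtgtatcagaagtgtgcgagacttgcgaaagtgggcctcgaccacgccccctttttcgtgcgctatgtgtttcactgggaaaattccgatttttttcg

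In the first 2 of these windows the 8-mer followed the summit towards the gene, starting 84 bp after it at rpl-15 and 74 bp at rps-28. The window of rpl-35 did not hold it. None of the 3 windows shown contains an exact match to the octamer ATGCAAAT on either strand, and partial matches were not searched.

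The deposited lists hold 30000 regions each for the pooled reads, replicate 1 and replicate 2, ranked here by the signal value of the authors' caller. The remaining list holds the peaks from the irreproducible discovery rate (IDR) procedure. These were exactly the strongest 2.47% of the pooled list, so the IDR set is a cut on pooled signal. The same number of regions at the top of a replicate's list is called the IDR level of that replicate. Each gene was given the strongest region with its summit between 1000 bp upstream of any of its annotated transcript starts and the gene end. Signals are compared only within a list, and the read depth behind them is unknown.

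An IDR peak lay in the window of 9 of the 78 ribosomal protein genes (11.5%), against 624 of the 19907 other protein-coding genes (3.13%) and 3.17% of all protein-coding genes. The 9 were 5 rpl- and 4 rps- genes. Ribosomal protein genes are short, with a median length of 753.5 bp and a range of 276 to 1734 bp, against a median of 2032 bp for other genes. Their windows were thus shorter than those of most genes. Among the 8316 other genes no longer than 1734 bp, 1.68% had an IDR peak. In the 1000 bp upstream of the starts alone, a window of nearly the same length for every gene, all 9 ribosomal protein genes kept their peak (11.5%), against 1.90% of other genes and 1.94% of all.

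The replicates were then read separately. At the IDR level of replicate 1, 10 ribosomal protein genes had a region (12.8%), against 3.09% of other genes and 3.13% of all. In replicate 2 it was 9 genes (11.5%), against 3.17% of other genes and 3.21% of all. At the IDR level of both replicates there were 7 ribosomal protein genes (8.97%), against 2.15% of other genes and 2.17% of all. These 7 were all among the 9 with an IDR peak. The gene sets were fixed by name, and no test was made over genes, which share libraries and in some cases regions.

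The strongest was rpl-3, whose protein lies near the catalytic centre of the large subunit. Its pooled region had a signal of 364.6 and rank 89, with ranks of 81 in replicate 1 and 95 in replicate 2. The summit lay 270 bp upstream of the start, and the replicates' summits were 4 bp apart. rpl-3 alone of the 78 was within the first 100 regions of the pooled list.

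Next in order came rpl-35, whose protein sits at the exit of the peptide tunnel, with a signal of 235.8 and rank 176. Its ranks were 154 and 214 in replicates 1 and 2, with the summit 449 bp upstream. The region of rpl-15, another large subunit gene, had a signal of 223.6 and rank 191, with ranks of 254 and 188 in replicates 1 and 2, and lay 371 bp upstream. Both were high in each replicate, well inside the IDR level. On ce11, the region of rpl-35 spanned chrIII:7854480-7854889 and that of rpl-15 chrIV:654742-655151.

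Small subunit genes followed. rps-26, whose yeast protein lies at the exit channel of the messenger RNA, had a region of signal 189.1 and rank 263, with ranks of 229 and 336 in the replicates, 377 bp upstream. rps-28 had a region of signal 178.8 and rank 282, with ranks of 219 and 344, 449 bp upstream. The region of rps-26 spanned chrI:14759348-14759757 and that of rps-28 chrIV:1659037-1659446. The 2 genes stood side by side in the order of pooled signal, and in both the better rank was in replicate 1.

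The large subunit gene rpl-20 had a signal of 175.6 and rank 289, 289 bp upstream, with ranks of 536 in replicate 1 and 251 in replicate 2. rps-24, whose human counterpart is mutated in some families with Diamond-Blackfan anaemia, had a signal of 147.2 and rank 380, with ranks of 426 and 376. Its pooled summit lay 561 bp upstream, the farthest of the 9, and its replicate summits were 173 bp apart, the widest gap among them. The region of rpl-20 spanned chrIV:4749862-4750271 and that of rps-24 chrIV:385121-385530.

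The weakest of the 9 were rps-19 and rpl-14. rps-19, also a Diamond-Blackfan anaemia gene in humans, had a signal of 113.2 and rank 635, with ranks of 788 in replicate 1 and 518 in replicate 2, 325 bp upstream. rpl-14 had a signal of 109.5 and rank 686, with ranks of 644 and 938, 313 bp upstream. Each of these genes therefore fell outside the IDR level in 1 replicate. The region of rps-19 spanned chrI:9625916-9626325 and that of rpl-14 chrI:9688679-9689088. None of the 9 summits lay in an exon of a protein-coding gene. The IDR peaks ended at a signal of 105.7, and the first ribosomal protein gene outside it was rpl-12, with a signal of 101.3 and rank 822.

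**Figure D1:**
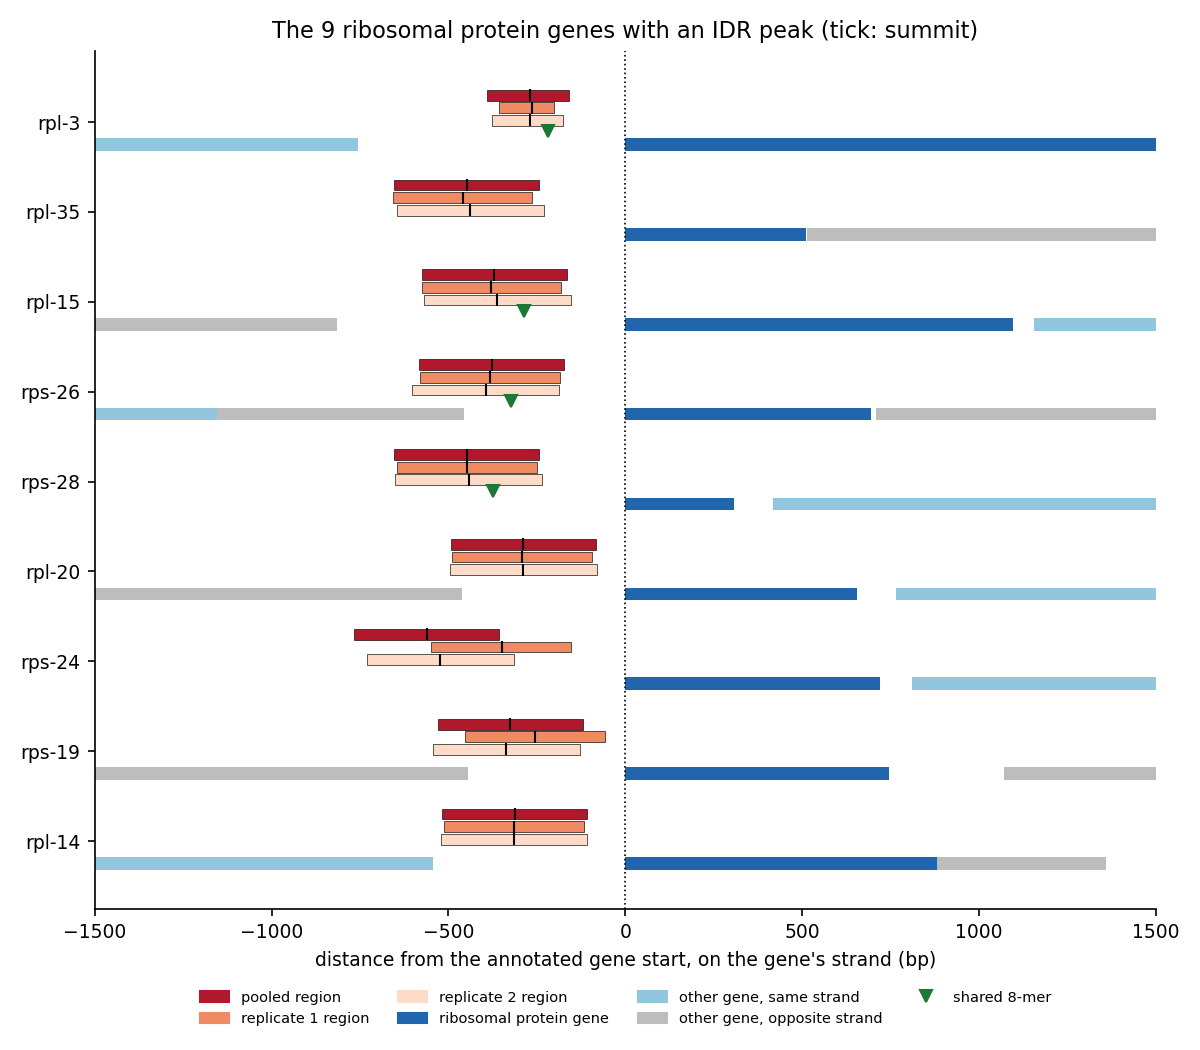
Regions of the 9 ribosomal protein genes with an IDR peak, by distance from the annotated gene start (bp, on the gene's strand). For each gene the bars are, from top to bottom, the pooled, replicate 1 and replicate 2 regions with a tick at the summit, then the annotated genes, and triangles mark the 8-mer. All 9 pooled summits lie upstream, between 270 and 561 bp before the start.

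The plot of regions around the 9 genes shows that the replicates placed them alike. In all 9, the summits of replicates 1 and 2 lay within 200 bp of each other. The 9 stand out by signal in the pooled reads, and the same share was not computed for other genes with an IDR peak. The shares that follow cover genes with regions of any rank. Of the 61 ribosomal protein genes with a region in each replicate, 42 had both summits within 200 bp (68.9%), against 41.9% of 9404 other genes and 54.0% of the short ones. The rank order of the replicates had a Spearman rho of 0.627 over these 61 genes, against 0.481 over the other genes, given as a description since the points share 2 libraries. Of the 61 genes, 16 had a region among the first 3000 of both replicates, against 1204 of the 9404 other genes.

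**Figure D2:**
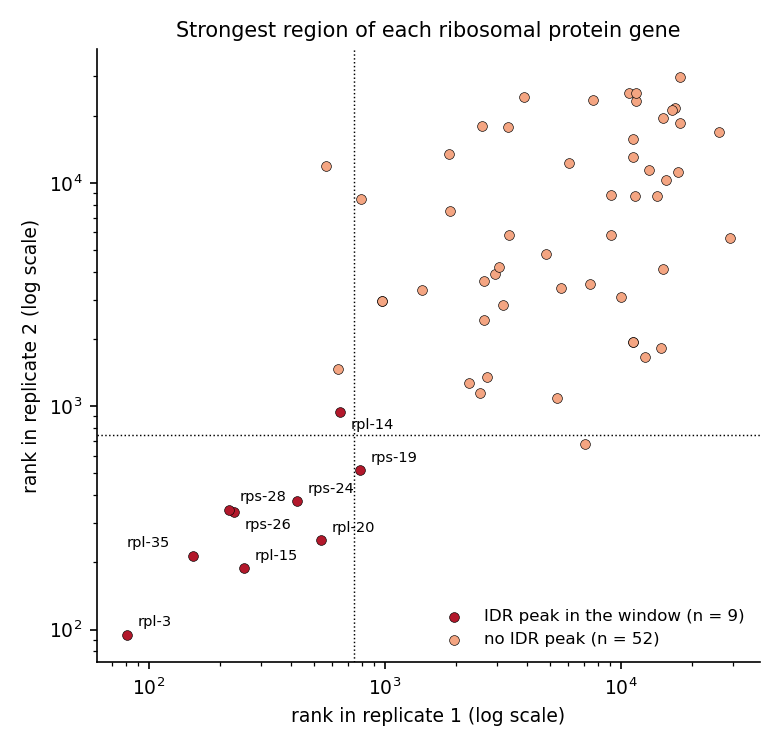
Rank of the strongest region of each ribosomal protein gene in replicate 1 (x) and replicate 2 (y), on log axes, for the 61 genes with a region in both. Dotted lines mark the IDR level. Dark points are the 9 genes with an IDR peak, of which 7 lie inside both lines, while the other 52 genes spread widely.

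The next 6 genes by pooled signal showed less even replicates. rpl-12, whose protein forms the base of the large subunit stalk, ranked 631 in replicate 1 and 1468 in replicate 2, and its summit lay 12 bp inside the gene. rps-1 ranked 940 in the pooled list, with 7075 in replicate 1 and 678 in replicate 2. rps-18 ranked 956 in the pooled list, with 1438 and 3327 in the replicates, and rpl-7A ranked 1093, with 2533 and 1150. rpl-17, a gene for a protein of the tunnel wall, ranked 1509, with 5348 and 1089, and rps-20 ranked 1564, with 796 and 8448. rps-1 and rps-20 thus owed their place to different replicates. The pooled summits of rps-18, rpl-17 and rps-20 lay nearer to another gene's start, that of sec-61.A (213 bp), aps-3 (112 bp) and ekl-4 (167 bp). The largest differences in rank between replicates were at rps-15 (28935 in replicate 1, 5651 in replicate 2), rpl-6 (3899 and 24211) and rps-22 (7651 and 23569). The replicates' strongest summits were 800, 2148 and 646 bp apart at these genes in the same order. Their ranks therefore come from regions at different places, not from one region.

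The whole lists were then used. Any pooled region was found for 71 ribosomal protein genes (91.0%), against 58.4% of other genes, 42.4% of short other genes and 58.6% of all. In replicate 1 it was 65 genes (83.3%), against 60.7% of other genes, and in replicate 2 it was 70 genes (89.7%), against 59.98%. Among genes with a region, the median pooled rank was 4773 (quartiles 1878.5 and 11982.5) for ribosomal protein genes and 10098.5 (quartiles 4219.75 and 18097.5) for other genes. Without the genes at the IDR level, the median rank was 7568 for 62 ribosomal protein genes and 10796 for 11008 other genes. Over all genes with a region, the median signal was 59.2 for ribosomal protein genes and 46.8 for other genes. In replicate 1 the median ranks were 5585 and 10200 in the same order, and in replicate 2 they were 5623.5 and 10407.

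Between the IDR level and rank 3000 lay the strongest regions of 17 ribosomal protein genes (21.8%), against 7.83% of other genes. Beyond rank 10000 the shares were nearly equal, 29.5% of ribosomal protein genes and 29.4% of other genes. Each gene was counted once, at its strongest region. Up to rank 10000 the shares were 61.5% of ribosomal protein genes, 29.0% of other genes and 17.0% of short other genes. Up to rank 30000 they were 91.0%, 58.4% and 42.4%. The small subunit genes had a median rank of 3600 and the large subunit genes one of 7292 in the pooled list. In replicate 1 the order turned round, with 6748 for small and 5466.5 for large subunit genes, and in replicate 2 it was 3490 and 7939.5.

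**Figure D3:**
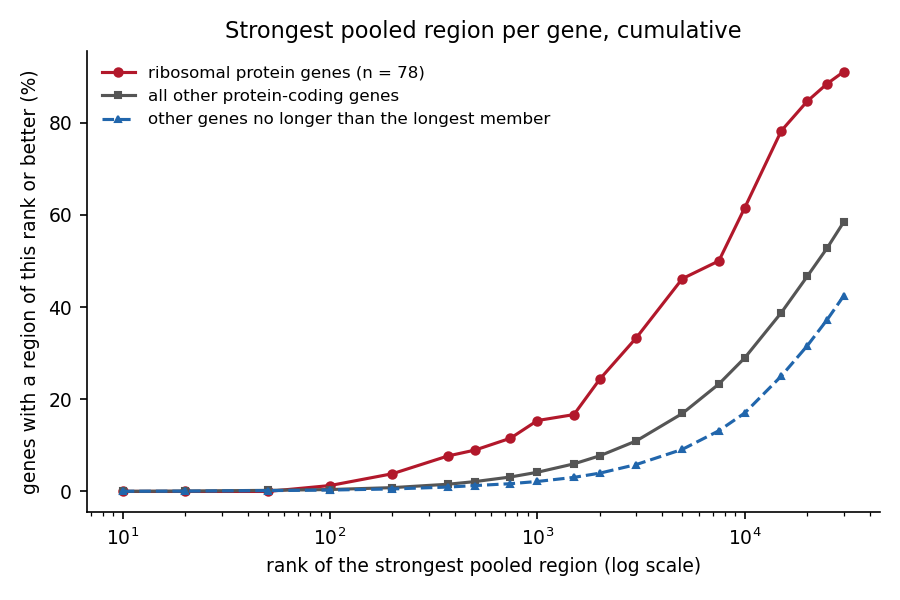
Share of genes (%) whose strongest pooled region has a given rank or better (log axis), for the 78 ribosomal protein genes, all other protein-coding genes and other genes no longer than the longest ribosomal protein gene. At rank 3000 the shares are 33.3%, 11.0% and 5.84%, and at rank 30000 they are 91.0%, 58.4% and 42.4%.

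Position was described next. The strongest pooled summit lay upstream of the nearest own start in 51 of the 71 (71.8%), against 40.9% of other genes with a region and 50.4% of the short ones. Short genes have more of their window upstream. The upstream piece made up 57.2% of the window on average for ribosomal protein genes, 34.7% for other genes and 51.6% for short other genes. The share upstream was 75.4% in replicate 1 and 80.0% in replicate 2 for ribosomal protein genes, against 39.0% and 39.4% for other genes. For short other genes it was 49.3% and 49.4%. All 9 IDR peaks of ribosomal protein genes were upstream, against 426 of 624 (68.3%) for other genes and 84.3% for the short ones.

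With upstream distances written as negative, the median summit position was -263 bp (quartiles -377 and 7) for ribosomal protein genes. It was 231 bp for other genes and -7 bp for the short ones. A band from 200 to 500 bp upstream, picked after the distances had been seen, held 33 of the 71 (46.5%), against 13.1% of other genes and 15.8% of short ones. Of the 9 IDR peaks, 8 were in that band (88.9%), against 25.5% of the other genes with an IDR peak. The fullest 100 bp bin ran from 300 to 200 bp upstream, with 15 ribosomal protein genes (21.1%), against 5.19% of other genes. A smaller group of 10 (14.1%) lay in the first 100 bp of the gene, against 4.36%. rpl-12 and rpl-33 are of this kind, each with its summit 12 bp inside the start.

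**Figure D4:**
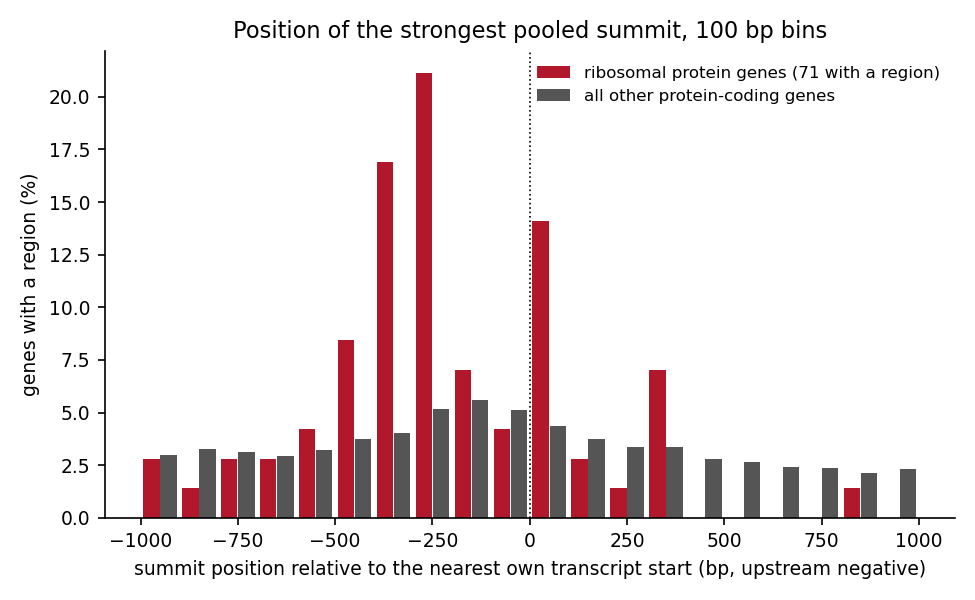
Position of the strongest pooled summit relative to the nearest own transcript start (bp, upstream negative) in 100 bp bins, as a share (%) of genes with a region whose summit lies anywhere in the window. Ribosomal protein genes pile up from 500 to 200 bp upstream and in the first 100 bp of the gene, while other genes spread over the range shown and beyond it.

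The tendency to lie upstream went with strength. It was 9 of 9 at the IDR level, 15 of 17 (88.2%) from there to rank 3000, 13 of 22 (59.1%) from there to rank 10000 and 14 of 23 (60.9%) beyond it. For other genes it was 68.3%, 50.9%, 39.2% and 36.4% in the same bands. By annotation, counting exons of any protein-coding gene, 21 of the 71 summits lay in a coding exon (29.6%), against 38.3% of other genes. There were 6 in a 5′ UTR (8.45%, other genes 3.18%) and 1 in a 3′ UTR (1.41%, other genes 2.83%). The remaining 43 lay in introns or between genes (60.6%), against 55.5% of other genes.

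Neighbouring genes bear on whose promoter is meant. The next gene upstream pointed away from the ribosomal protein gene in 54 of 78 cases (69.2%), against 46.1% of other genes. The strongest region also lay in the window of another protein-coding gene in 54 of 71 (76.1%), against 30.0% of other genes and 45.4% of short ones. The nearest start of any protein-coding gene was the ribosomal protein gene's own in 48 of 71 (67.6%), against 77.9% for other genes. Of the 9 IDR peaks, 3 were nearer to another start. These were the peak of rps-26, 80 bp from tmem-107, that of rpl-20, 173 bp from Y17G9B.5, and that of rps-19, 120 bp from hsr-9. If an IDR peak counted only for the gene with the nearest start within 1000 bp, 6 ribosomal protein genes remained (7.69%), against 1.94% of other genes. They were rpl-3, rpl-14, rpl-15, rpl-35, rps-24 and rps-28.

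Some ribosomal protein genes shared one region with each other. rpl-39 and rps-30 shared a region of rank 2705, rps-10 and rpl-24.1 one of rank 4132, and rps-14 and rpl-36 one of rank 14628. The 71 genes thus stood on 68 different regions. The region of rps-10 and rpl-24.1 was within 100 bp of a snoRNA gene, D1007.20, whose product belongs to the class of small RNAs that guide changes to ribosomal RNA. These were the only ones of the 71 genes with a strongest region so close to a gene of a small RNA (2.82% of genes, on 1 region), against 2.63% of other genes. Among genes with an IDR peak it was 0 of 9 ribosomal protein genes, against 29.5% of other genes.

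Paralogues with a shared number differed in rank. rpl-41.2 ranked 2053 with its summit 313 bp upstream, and its neighbour rpl-41.1 ranked 26851. rpl-24.2 ranked 2485 and rpl-24.1 ranked 4132. rpl-11.2 and rpl-11.1 ranked close together, 3874 and 4294, but replicate 1 gave rpl-11.2 rank 1867 and had no region for rpl-11.1. rpl-25.2 ranked 24627, and rpl-25.1 had no pooled region but one of rank 15286 in replicate 1. rpl-36 and rpl-36.A, which share a number but encode different ribosomal proteins, ranked 14628 and 22484.

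At the other end, 7 ribosomal protein genes had no pooled region. They were rpl-19, rpl-21, rpl-25.1, rpl-26, rpl-29, rps-8 and rps-25. Of these, rpl-21, rpl-29 and rps-25 had none in either replicate either. The lowest rank with a pooled region was that of rps-27, 27780, which neither replicate list held. A missing region says only that none was among the 30000 listed.

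Other genes of protein synthesis were described in the same way. The 70 mitochondrial ribosomal protein genes (mrpl-, mrps-) have products that work in a separate ribosome. Of these, 2 had an IDR peak (2.86%), against 3.17% of all protein-coding genes. The median rank was 10507, near that of all genes. Their strongest was mrpl-23 at rank 145, at the snoRNA gene T08B2.13, and mrpl-12 had rank 675. The 6 cytosolic ribosomal genes with other names had no IDR peak. Of these, 4 had a region, with a median rank of 4545, and 3 of them lay close together, rla-1 at 4348, ubl-1 at 4452 and ubq-2 at 4638.

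Initiation factors came nearest in position among these lists. Of 33 genes, 2 had an IDR peak (6.06%), and the 25 with a region had a median rank of 4979. Of the 25 summits, 21 lay upstream (84.0%) and 14 between 200 and 500 bp upstream (56.0%), so this band is not found at ribosomal protein genes alone. The strongest were eif-3.C at rank 224, 248 bp upstream, iff-2 at 315 and eif-3.D at 935. Of the 6 elongation factor genes, all with a region, 1 had an IDR peak (16.7%), eef-1A.1 at rank 696. Next came eef-2 at 1131 and eef-1A.2 at 3197. Aminoacyl-tRNA synthetases had 3 IDR peaks among 31 genes (9.68%), and 87.1% had a region, with a median rank of 10528. They were led by ears-2 at rank 59, with fars-1 on the region of mrpl-23 and tars-1 at 736. Histone genes, strongly transcribed but not part of translation, had an IDR peak in the window of 6 of 72 genes (8.33%). These peaks were 3 regions shared by 2 genes each. The 29 histone genes with a region had a median rank of 2067. The strongest were his-67 and his-68 on a region of rank 213 and his-61, with his-62, on one of rank 627. Shares above the 3.17% of all protein-coding genes were thus not found at ribosomal protein genes alone, and these lists are small. At the IDR level of both replicates, initiation factors stood at 6.06%, synthetases at 6.45%, histone genes at 2.78% and elongation factors at 0%. Ribosomal protein genes stood at 8.97% there, and all protein-coding genes at 2.17%. The region of eef-1A.1 ranked 883 and 926 in replicates 1 and 2, outside the IDR level of each.

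**Figure D5:**
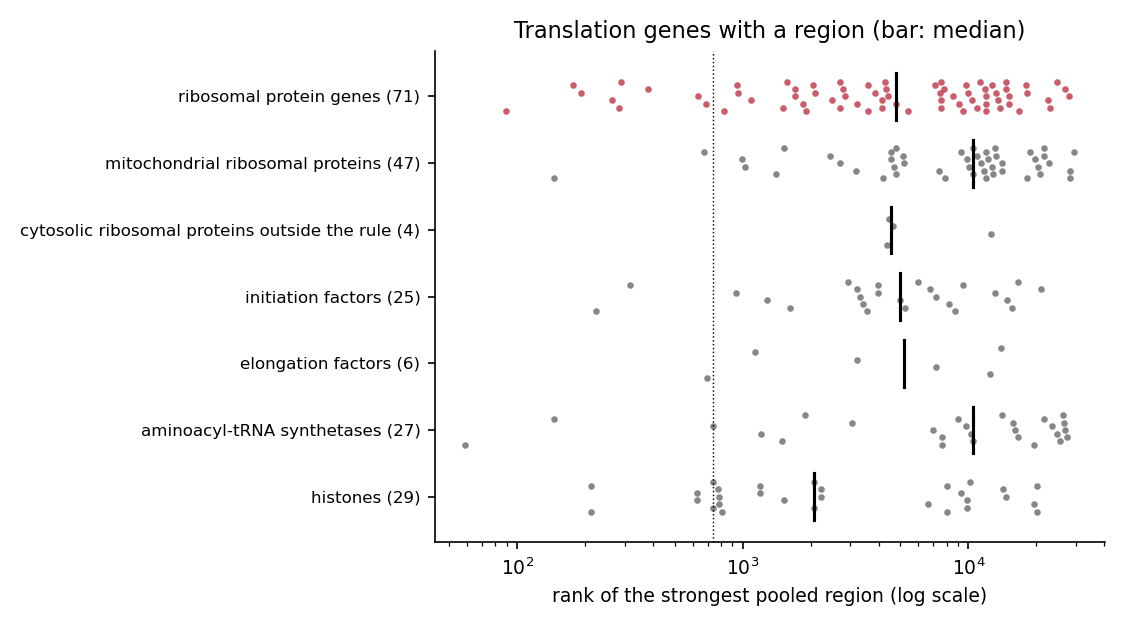
Rank of the strongest pooled region (log axis) of each gene with a region, for ribosomal protein genes on top and the other lists below, with the number of genes in brackets. The dotted line marks the IDR level and black bars mark medians, which are 4773 for ribosomal protein genes, 10507 for mitochondrial ribosomal proteins and 2067 for histones.

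Sequence was searched for exact matches in the 250 bp before each gene's start. The octamer ATGCAAAT, on either strand, was found at 3 of the 78 ribosomal protein genes (3.85%), against 2.43% of other genes. In the 100 bp to each side of the strongest summits it was present in 3 of 71 windows (4.23%), against 1.82% for other genes. TTTCAG on the gene's strand, the form of a splice acceptor, was upstream of 57.7% of ribosomal protein genes, against 30.2% of other genes. The other motifs, on either strand, were less common before ribosomal protein genes than before other genes. TATAAA stood at 26.9% against 35.2%, TTTTTTTT at 17.9% against 31.0%, CCGCCC at 2.56% against 6.96%, GAGAGAGA at 1.28% against 3.23% and CACACACA at 1.28% against 2.08%. In 500 bp the octamer was upstream of 7 ribosomal protein genes (8.97%), against 4.63% of other genes. The TATAAA and CCGCCC shares of ribosomal protein genes, 53.8% and 10.3%, were close to those of other genes, 54.0% and 10.9%, in that window.

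The 250 bp upstream had a GC content of 30.4% ± 4.25 (SD over 78 genes) at ribosomal protein genes and 33.8% ± 5.91 at 19895 other genes. Around the summits it was 42.1% ± 5.85 over 71 ribosomal protein genes and 42.4% ± 7.30 over 11620 other genes. The 9 IDR peaks of ribosomal protein genes had 44.0% ± 2.27, against 47.9% ± 6.65 at the strongest summits of 612 other genes with an IDR peak.

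The 8-mer GGCCTAAA, on the gene's strand, was present in the 500 bp upstream of 16 of the 78 ribosomal protein genes (20.5%), against 0.80% of other genes. In 250 bp it was upstream of 7 of them (8.97%), against 0.367%. Since it was picked for being common there, the count is a description only. It was upstream of 4 of the 9 genes with an IDR peak, rpl-3, rpl-15, rps-26 and rps-28. Of the 11 genes with the 8-mer and an upstream summit, 10 had the 8-mer on the gene's side of the summit, 7 of them within 100 bp. At rpl-10, rps-6 and rpl-25.2 the summit lay inside the gene, so the 8-mer was on its other side. The placement at other genes with the 8-mer was not measured. The 14 ribosomal protein genes with the 8-mer and a region had a median rank of 3570, against 7500 for the 57 with a region and without it. Of the 62 without the 8-mer, 5 had an IDR peak. The 8-mer was picked after the values had been seen, so the ranks too are a description only. Among the 159 other genes with the 8-mer, 5 had an IDR peak (3.14%), the same share as among other genes in general. A further 8-mer picked in the same way, GGTCTCGC, was upstream of 17 ribosomal protein genes (21.8%) in 500 bp, against 1.15% of other genes, and of 3 (3.85%) in 250 bp, against 0.603%. Of these 17, 1 had an IDR peak (rpl-14), and the median rank was 7522.5 with it and 4417 without it.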

How the data were processed

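TF ChIP-seq regions from 2 biological replicates of 1 group were used. The authors deposited 4 lists on ce11 (the WBcel235 assembly), 1 for each replicate, 1 for the pooled reads and 1 of IDR peaks, and the text deposited with the files gives 1 control for each list. The signal column is a score given by the authors' caller, its scale is not stated, and it served only to rank regions within a list. Aligner, caller and read filters were not given in the sources used here. Read depth is unknown, so no counting interval is given. Genes came from Ensembl release 115, and bases from the RefSeq copy of the same assembly. Chromosome ends were checked against the regions. The sequence of 1 further region is not reported here.

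For each protein-coding gene the region of highest signal was taken among those with a summit from 1000 bp upstream of any transcript start to the gene end. Genes and regions are not replicates, and nothing separates culture from library differences here, so shares and medians are given with no test. Motif shares leave out mitochondrial genes. Motifs were counted in 250 bp upstream, with 500 bp as the alternative. The members, lists and motifs were chosen with earlier results of these data known, and GGCCTAAA, GGTCTCGC and the band 200 to 500 bp upstream were added after the values were seen.

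Named genes were the members with an IDR peak, the 15 of highest and 5 of lowest signal or without a region, paralogues, the 3 with the largest replicate difference, members within 100 bp of a small RNA gene and up to 3 strongest of each other list. Members sharing a region, and rpl-33, were named after their values were seen. The search was tested on simulated regions. Python 3.11.15, NumPy 2.4.6, pandas 2.3.3, SciPy 1.17.1 and matplotlib 3.10.9 were used. Alternatives were 500 and 2000 bp upstream, no gene body, any overlap in place of the summit, other limits in place of the IDR level, other distances between summits, no regions near small RNA genes, and each replicate alone.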

Additional observations from a re-analysis of the deposited data

How the results depend on the processing

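Counts of ribosomal protein genes with an IDR peak, with a region at the IDR level of both replicates and with any pooled region stayed within 1.5 times of those reported under every alternative run. Their shares were above those of other genes throughout, by 2.79 to 6.06 times over 11 settings, 3.65 to 7.06 times over 9 and 1.37 to 2.63 times over 9. The values below moved, apart from the octamer share and the values of ribosomal protein genes with the outermost start alone. The cause was not tested.

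The median rank was 7500 with 500 bp upstream (other genes 10486), 4503.5 with 2000 bp (9305), 4355.5 without gene bodies (11976), 5146 without regions near small RNA genes (10386), 5406 with any overlap (9852), and 5585 to 5623.5 with a replicate left out (10200 to 10407). The share upstream was 65.7% with 500 bp (other genes 30.0%), 77.0% with 2000 bp (54.3%), 66.7% with any overlap (42.5%), and 75.4 to 80.0% with a replicate left out (39.0 to 39.4%). The median position was -230 bp with 500 bp (other genes 471 bp), -295.5 bp with 2000 bp (-108 bp) and -308.5 bp without gene bodies (-431 bp), where other genes lay farther upstream than ribosomal protein genes. Replicate summits within 200 bp made up 54.7% with 2000 bp (other genes 39.0%) and 90.9% without gene bodies (74.6%). Without gene bodies every summit is upstream by construction, so that share was not computed. Taking the outermost start alone leaves the windows as they were and moved no value of ribosomal protein genes, but other genes then had a median position of 452.5 bp and 35.6% upstream.

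TATAAA and CCGCCC were less common before ribosomal protein genes in 250 bp, but in 500 bp the shares were 53.8% against 54.0% and 10.3% against 10.9%. GGCCTAAA and GGTCTCGC, counted in 500 bp, stood at 8.97% and 3.85% in 250 bp (other genes 0.367% and 0.603%), and the octamer stood at 8.97% in 500 bp (other genes 4.63%). TTTTTTTT and TTTCAG stood at 35.9% and 69.2% in 500 bp (other genes 49.4% and 46.1%). No paired analysis was possible because there is 1 group of samples. Unknown depth limits how far a missing region can be read.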
